A study of Mus musculus with 24 samples.

Results

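Open chromatin was followed at the loci of 10 genes of the epithelial-mesenchymal transition (EMT) and of the classical cadherins while SOX9 was switched on in mouse epidermal stem cells. The members were all ATAC-seq peaks that overlapped Vim, Snai1, Snai2, Twist1, Twist2, Zeb1, Zeb2, Cdh1, Cdh2 or Cdh3, or the 50 kb on either side of these gene bodies, in the GENCODE annotation of GRCm38. They numbered 725 of the 708357 peaks in 12 deposited lists. Merged wherever they shared at least 1 base, they formed 140 of 134385 regions across the 12 lists, 77 of 98240 in the 5 lists from skin and 120 of 97078 in the 7 lists from culture.

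The study placed 24 ATAC-seq samples in 12 groups of 2, and each group has 1 peak list because its replicates were merged before peaks were called. In vivo, CD1 male mice of genotype K14rtTA; TRE-myc-Sox9 were given doxycycline (DOX), which lets the Krt14 promoter-driven rtTA activate a MYC-tagged Sox9 transgene in basal keratinocytes. The groups were D0 at postnatal day 21 before DOX, W1 at day 28, W2 at day 35, W6 at day 63, and W12, 12 weeks into DOX, taken from neonatal skin grafted onto Nude hosts. Per the study's methods 2 to 4 mice were pooled per in vivo replicate. These cells were sorted from back skin as negative for CD31, CD45, CD117 and CD140a, high for CD49f and Ly6A, and negative for CD34. The culture groups were keratinocytes from back skin that all carried K14rtTA and were exposed to DOX at 1 µg per ml, for 3 days where the labels give a time, except noDOX, which shared the TRE-myc-Sox9 genotype of WT-SOX9 and received none. The other arms expressed SOX9 without its DNA-binding HMG box (ΔHMG-SOX9, TRE-myc-Sox9noHMG), SOX9 without its transactivation domain (ΔTA-SOX9, TRE-myc-Sox9noTA), the dominant-negative FOS variant AFOS (TRE-FLAG-AFOS), wild-type SOX9 with AFOS, or wild-type SOX9 with ARID1a, a SWI/SNF subunit (TRE-ARID1a). The methods describe lentiviral delivery with drug selection for the SOX9 variants, AFOS and ARID1a. In the combined arms the virus carried AFOS or ARID1a into cells that already held TRE-myc-Sox9, so the delivery of SOX9 may differ from that in WT-SOX9.

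EMT is the process by which epithelial cells loosen their junctions and take on migratory, mesenchymal properties. Zinc finger repressors of the Snail and ZEB families and the bHLH factors Twist1 and Twist2 drive it, in part by repressing E-cadherin (Cdh1) through E-box elements in its promoter. N-cadherin (Cdh2) and the intermediate filament protein vimentin (Vim) mark mesenchymal cells, whereas Cdh1 and P-cadherin (Cdh3) hold keratinocytes together, Cdh3 mostly in basal and hair follicle cells. Snai2 is also made by normal basal keratinocytes.

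The sequences shown are 200 bases of 4 regions, examples from the time course or the arms. With them are 150 bases upstream of the RefSeq start of 2 members whose promoter scores differed between lists. The first is the highest-scoring region opened in WT-SOX9 among the loci whose sequence is printed, chr2:45017284-45017724, with chr2:45017404-45017603 shown. The second, chosen after its values were seen, is chr2:45019657-45019856 within the intronic region chr2:45019132-45020381. The third, chosen in the same way among the early-gained regions (first present at W2 and still present later), is chr16:14736249-14736448, intergenic and 30.5 kb downstream of the Snai2 start site. The fourth, the region lost by W2 with the highest score in any list, 12.8 in the list labelled W1, is chr8:106535192-106535391 at Cdh3. At D0 its score of 6.70 was below those of the other lost regions, 6.95 at Snai1 and 6.90 at Snai2. The promoter stretches are chr2:167538045-167538194 for Snai1 and chr2:13574161-13574310 for Vim. All are on the plus strand of GRCm38, read from the RefSeq assembly or its promoter table. Capitals mark matches on either strand to short consensus letters. For AP1 these were TGAGTCA. The SOX consensus was searched as ACAATG. It was also searched as ACAAAG. For GATA factors they were AGATAA. For RUNX factors they were TGTGGT. The E-box bound by Snail and ZEB repressors was CAGGTG.
Zeb2, opened in WT-SOX9: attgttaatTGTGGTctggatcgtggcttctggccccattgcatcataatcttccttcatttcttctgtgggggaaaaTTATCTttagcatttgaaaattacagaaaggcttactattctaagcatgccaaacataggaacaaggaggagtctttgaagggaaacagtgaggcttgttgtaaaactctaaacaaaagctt
Zeb2, adjoining intronic region: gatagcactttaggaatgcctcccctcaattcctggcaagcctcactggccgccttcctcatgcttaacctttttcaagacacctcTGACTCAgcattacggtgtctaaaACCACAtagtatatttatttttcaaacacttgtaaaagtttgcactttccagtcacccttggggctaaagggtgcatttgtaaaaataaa
Snai2, early-gained: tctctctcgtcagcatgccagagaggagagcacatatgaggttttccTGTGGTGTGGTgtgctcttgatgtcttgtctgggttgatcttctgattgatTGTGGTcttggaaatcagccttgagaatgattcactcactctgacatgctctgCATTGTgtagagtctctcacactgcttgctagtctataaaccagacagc
Cdh3, lost by W2: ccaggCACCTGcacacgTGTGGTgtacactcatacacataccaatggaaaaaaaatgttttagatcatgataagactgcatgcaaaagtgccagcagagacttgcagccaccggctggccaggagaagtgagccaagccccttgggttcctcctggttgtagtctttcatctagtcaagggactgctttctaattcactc
Snai1 promoter: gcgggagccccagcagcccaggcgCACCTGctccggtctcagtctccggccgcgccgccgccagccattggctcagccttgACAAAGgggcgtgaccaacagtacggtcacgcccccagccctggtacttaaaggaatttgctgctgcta
Vim promoter: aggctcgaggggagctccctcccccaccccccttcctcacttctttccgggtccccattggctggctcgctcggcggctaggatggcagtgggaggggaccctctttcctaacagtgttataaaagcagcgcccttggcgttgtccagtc

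Of the shown stretches, the Zeb2 intronic region held an AP1 and a RUNX match, and the region beside it a GATA and a RUNX match. Neither 200 bp stretch held the SOX letters, but the whole Zeb2 regions held them 4 and 2 times. Over their whole width, 64.3% of member regions and 57.5% of all regions held them at least once, without regard to differences in width. The Snai2 region held 3 RUNX matches and 1 SOX match, the Cdh3 region 1 RUNX match and 1 E-box. Promoter sequences were found for 5 of the 10 genes, Vim, Snai1, Twist1, Twist2 and Zeb2. Snai2, Zeb1, Cdh1, Cdh2 and Cdh3 were not among them. An E-box lay in 1 of these 5 promoters, that of Snai1, against 17.1% of all 27025 promoters in the table. In the central 200 bp of the 140 member regions, the SOX letters occurred in 27.9% against 27.8% of all regions, AP1 in 24.3% against 19.4%, GATA in 9.29% against 10.7%, RUNX in 18.6% against 16.5% and the E-box in 19.3% against 17.5%. Thus none of these letter strings was far more or less frequent at the members than elsewhere.

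A peak's score is the authors' rescaled peak caller score. The scores of a list sum to between 925672 and 996710, and every list was restricted by the authors to scores of at least 3, so a score is read as a share of a near-constant total. The lists held 49458 to 75956 peaks, the shortest being SOX9+AFOS and the longest W6, and the number of sequenced fragments behind each is unknown. With 1 list a group there is no replicate error, no difference below has a replicate check, and intervals on shares (95% Wilson) cover counting error only. In bulk samples, fewer cells with open chromatin and less opening per cell cannot be told apart. The promoters of the keratinocyte genes Krt5, Krt14, Trp63 and Itga6 had a peak in all 12 lists. Of the fibroblast markers Col1a2, Lum and Dcn had none in any list, Col1a1 had 4.62 at D0 and 9.04 in ΔTA-SOX9 alone, and Pdgfra, whose protein CD140a was used to sort fibroblasts away in vivo, had one in every list, from 5.66 to 17. Of the melanocyte markers Tyr, Dct and Kit and of the immune markers Ptprc, Cd207 and Cd3e had none in any list, whereas the melanocyte markers Mitf and Pmel had a promoter peak in all of them. The immune marker Cd74 had 5.89 at D0, 3.92 at W6 and 8.45 at W12 and none at the other in vivo times, and 5 of the 7 culture lists had one too. Csf1r had none in vivo and a peak in 6 culture lists, from 6.02 to 63.5. Of the endothelial markers, Pecam1 had 6.75 in ΔTA-SOX9 alone, Cdh5 had 3.23 in ΔHMG-SOX9 and 9.21 in ΔTA-SOX9, and Kdr and Tek had at most 7.75 in any list. Over exon 3 of Sox9, present in the transgene, D0 scored 13.5, W2 15.1, W6 9.22 and W12 8.84, whereas the list labelled W1 had no peak, so this exon did not separate the time before DOX from the times after it. In culture peaks over it scored 3.71 in noDOX, 21.2 in WT-SOX9, 71.9 in ΔHMG-SOX9, 5.11 in SOX9+AFOS and 3.71 in SOX9+ARID1a, and ΔTA-SOX9 and AFOS had none, so the arms with SOX9 are named by their labels.

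Promoter accessibility split the 10 genes into groups. Cdh1, Cdh3, Snai1, Snai2 and Vim had a peak within 500 bp of an annotated start site in all 12 lists. Twist2 had none in any list, and Twist1, Zeb1, Zeb2 and Cdh2 had one in some. In all, 83 of 120 gene and list pairs (69.2%) had a promoter peak.

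**Figure D1:**
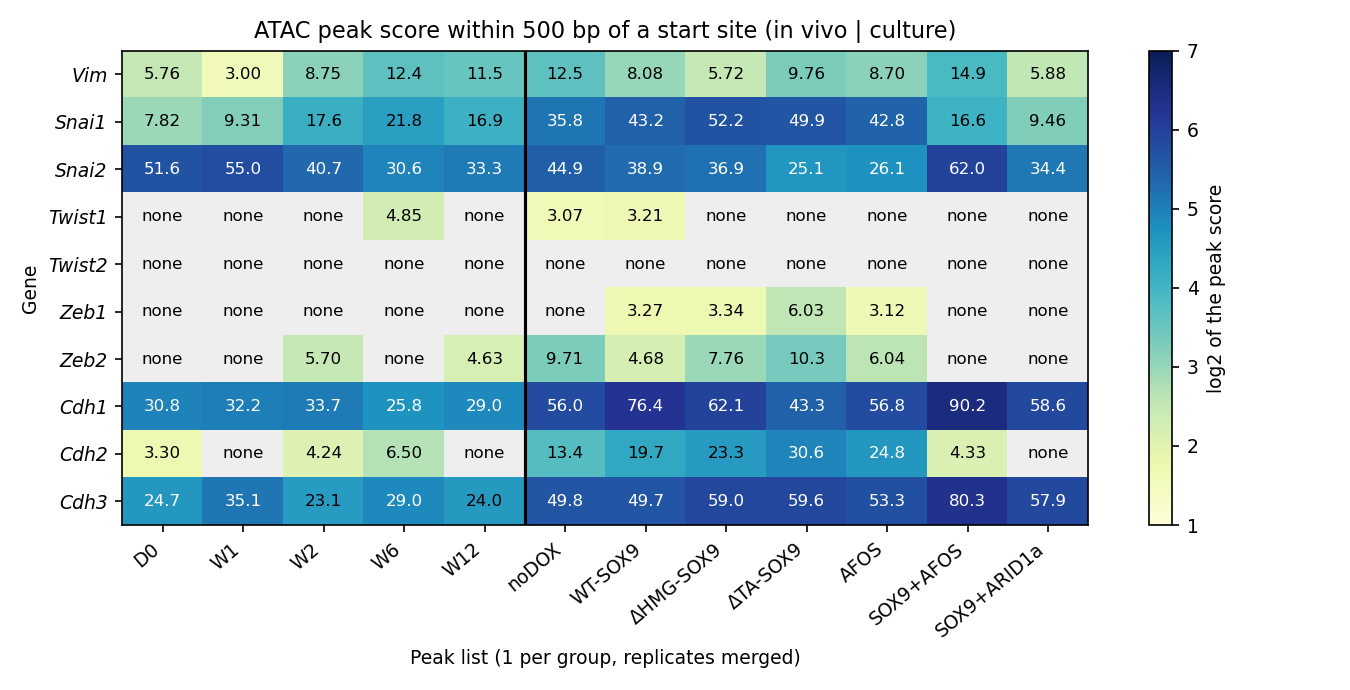
Score of the highest ATAC peak within 500 bp of a start site for the 10 genes (rows) in the 12 lists (columns, in vivo left of the line and culture right), coloured by log2 score, grey where no peak was listed. Cdh1, Cdh3 and Snai2 carry high scores throughout, Snai1 is higher in culture than in vivo in most arms, Twist2 has no peak in any list, and Twist1, Zeb1 and Zeb2 reach at most 10.3.

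Snai1 encodes the Snail repressor and lies at chr2:167538195-167542814. Its promoter scored 7.82 at D0, 9.31 in the list labelled W1, 17.6 at W2 and 21.8 at W6, with 16.9 at W12. The 3 lists from W2 on were thus all above both earlier ones, by 2.25-fold at W2 and 2.79-fold at W6 against D0. The authors' fold enrichment over background, the height of the same peaks, was 9.39, 8.88, 13.3, 13.0 and 12, in the same order. In culture the score was 35.8 in noDOX, 43.2 in WT-SOX9, 52.2 in ΔHMG-SOX9, 49.9 in ΔTA-SOX9 and 42.8 in AFOS. It was lowest where SOX9 was joined by a partner construct, 16.6 in SOX9+AFOS and 9.46 in SOX9+ARID1a.

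Snai2 (Slug), at chr16:14705852-14709385, showed the opposite order in vivo. Its promoter scored 51.6 at D0, 55.0 in the list labelled W1, 40.7 at W2 and 30.6 at W6, then 33.3 at W12, so that the later lists were all lower, 0.593-fold at W6 relative to D0. In culture it scored 44.9 in noDOX, 38.9 in WT-SOX9, 36.9 in ΔHMG-SOX9, 25.1 in ΔTA-SOX9, 26.1 in AFOS, 62.0 in SOX9+AFOS and 34.4 in SOX9+ARID1a. Among the culture lists SOX9+AFOS was therefore the highest for Snai2 and the next to lowest for Snai1. No list differed 2-fold from D0 or noDOX at the Snai2 promoter.

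Vim, at chr2:13573927-13582826, was open at its promoter at a low score throughout. The score was 5.76 at D0, 3.0 in the list labelled W1, 8.75 at W2 and 12.4 at W6, then 11.5 at W12, which is 2.15-fold higher at W6 than at D0. Fold enrichment of the same peaks did not follow it, at 7.11, 4.69, 6.56, 6.12 and 7.43. In culture the score was 12.5 in noDOX, 8.08 in WT-SOX9, 5.72 in ΔHMG-SOX9, 9.76 in ΔTA-SOX9, 8.70 in AFOS, 14.9 in SOX9+AFOS and 5.88 in SOX9+ARID1a. Over the whole merged region at the promoter, chr2:13573457-13576419, the highest score was 12.5 in noDOX, 13.9 in WT-SOX9 and 10.8 in SOX9+ARID1a, so that the order of WT-SOX9 and noDOX turned.

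The E- and P-cadherin promoters were the steadiest. Cdh1 scored 30.8 at D0, 32.2 in the list labelled W1, 33.7 at W2 and 25.8 at W6, then 29.0 at W12. Cdh3 scored 24.7, 35.1, 23.1, 29.0 and 24 at the same times. In culture the Cdh1 promoter ranged from 43.3 in ΔTA-SOX9 to 90.2 in SOX9+AFOS, with 56.0 in noDOX and 76.4 in WT-SOX9. The Cdh3 promoter ranged from 49.7 in WT-SOX9 to 80.3 in SOX9+AFOS, with 49.8 in noDOX. No in vivo list changed either score 2-fold against D0.

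The remaining promoters were weak or closed in vivo. Cdh2 had a promoter peak at D0 (3.30), W2 (4.24) and W6 (6.50) and none in the list labelled W1 or at W12. In culture it scored 13.4 in noDOX, 19.7 in WT-SOX9, 23.3 in ΔHMG-SOX9, 30.6 in ΔTA-SOX9 and 24.8 in AFOS, but 4.33 in SOX9+AFOS, and SOX9+ARID1a had none. Zeb2, with 17 annotated start sites, had a peak at W2 (5.70) and W12 (4.63) in vivo. In culture Zeb2 scored 9.71 in noDOX, 4.68 in WT-SOX9, 7.76 in ΔHMG-SOX9, 10.3 in ΔTA-SOX9 and 6.04 in AFOS, with none in SOX9+AFOS or SOX9+ARID1a. Zeb1 had none in vivo and 3.27, 3.34, 6.03 and 3.12 in WT-SOX9, ΔHMG-SOX9, ΔTA-SOX9 and AFOS. Twist1 had 4.85 at W6, 3.07 in noDOX and 3.21 in WT-SOX9. With the score minimum raised to 5, the pairs with a promoter peak numbered 71 of 120.

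The time course was then followed over whole windows. Of the 77 in vivo regions, 34 were static, that is, present in all 5 lists (44.2%, interval 33.6 to 55.3%), against 37.8% of all regions. Early-gained regions, with no peak at D0 or in the list labelled W1 and then a peak in each of the 3 later lists, were 5 (6.49%, 2.81 to 14.3%), against 7.99% of all. Late-gained regions, present at W6 and W12 alone, were 10 (13.0%, 7.21 to 22.3%), against 6.89%. Lost by W2 and not regained were 3 (3.9%, 1.33 to 10.8%), against 5.59%. The other 25 had mixed patterns. Each background share except that of the late-gained regions lay within the members' counting interval. With lists of equal length, late-gained regions were 5 of 68 (7.35%), early-gained 1 (1.47%) and lost 4 (5.88%). The class shares of all regions were not counted under this or the settings that follow. These values therefore have no background beside them. Without the list labelled W1 the counts were 36 static, 5 early-gained, 11 late-gained and 3 lost, of 72. Lists differed in their lowest significance, −log10 q being at least 14.5 in D0 and 4.21 in W2. With a common minimum, 0 regions were early-gained, 4 of 61 late-gained and 6 (9.84%) lost by W2. Gains and losses thus both depended on the minimum used.

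The loci differed in which class they held. At Cdh1 and Cdh3 together 23 of 42 regions were static, and 1 each was early-gained, late-gained and lost. At Vim, the EMT factors and Cdh2 together, a grouping made after the values were seen, 11 of 35 were static, 4 early-gained, 9 late-gained and 2 lost. Of these 35, D0 held 15, the list labelled W1 13, W2 18, W6 32 and W12 26, or 42.9%, 37.1%, 51.4%, 91.4% and 74.3%. Over all regions the shares were 56.7%, 58.3%, 61.9%, 74.9% and 70.9%. The share at these 8 loci was thus below that of all regions up to W2 and above it at W6 and W12, at W12 by little. W6 was the longest list. With the common −log10 q minimum D0 held 15 of 28 (53.6%) and W6 21 (75.0%), a smaller difference. The share of all regions was not counted at that minimum. With the 5 lists shortened to the same number of peaks, D0 held 15 and W6 27 of 31, against 64.8% and 65.3% of all regions, and W12 held 19, or 61.3%, against 65.3%, so that the W12 difference turned, while those at D0, at W6 and at the times between kept their direction. At Cdh1 and Cdh3 the shares went from 66.7% at D0 to 73.8% at W6, but with lists of equal length from 75.7% to 64.9%, so that their direction turned.

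**Figure D2:**
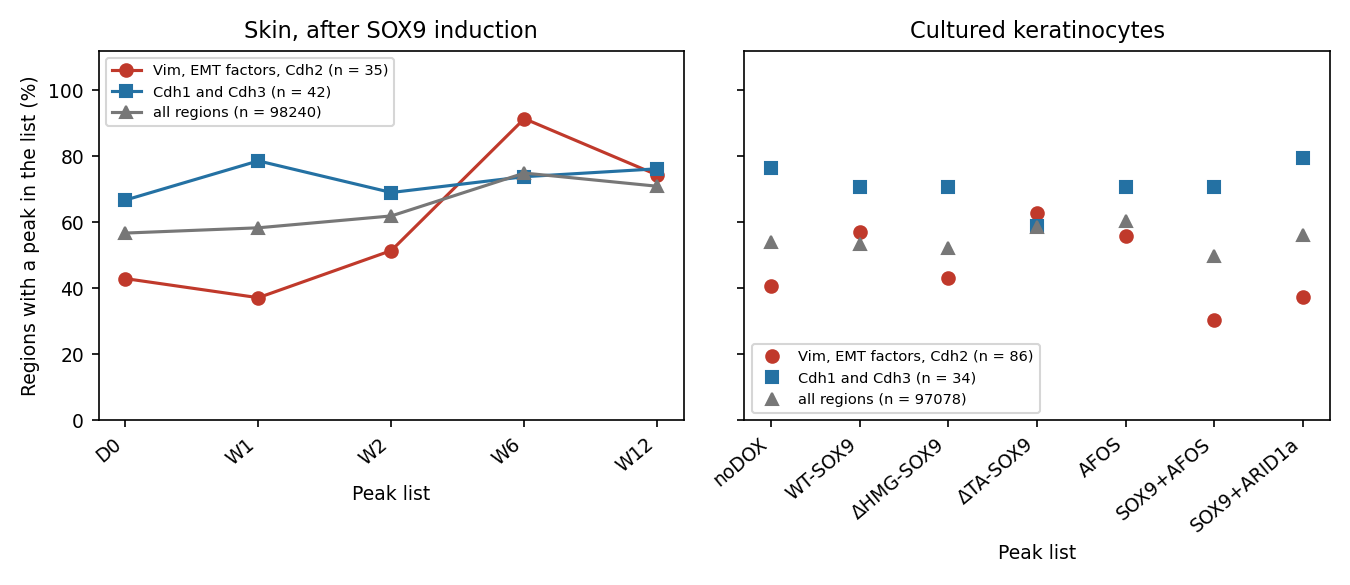
Percent of regions with a peak in each list, for Vim, the 6 EMT factors and Cdh2 (circles), for Cdh1 and Cdh3 (squares) and for all regions (triangles), in skin at left and culture at right. The circles go from 42.9% at D0 to 91.4% at W6 in lists of unequal length and minimum, while in culture they are lowest, at 30.2%, in SOX9+AFOS.

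Zeb2, at chr2:44983632-45117395 on the minus strand, held more regions at W6 and W12 than at D0. Its window held 3 peaks at D0, 2 in the list labelled W1, 6 at W2 and 8 at W6, then 9 at W12. The whole lists grew too, with 57334, 57767, 64095, 75956 and 71503 peaks in the same order. No count with lists of equal length was made for the Zeb2 window alone. Its strongest early-gained region, chr2:44952641-44953330, is intergenic downstream of the gene and scored 6.99 at W2, 14.8 at W6 and 10.8 at W12. A region over exonic sequence, chr2:44985065-44985655, scored 7.82, 3.88 and 3.11 at these times. The intronic region printed above, chr2:45019132-45020381, was absent up to W2 and scored 10.6 at W6 and 6.58 at W12. Its neighbour chr2:45017284-45017724, which overlaps an exon, followed with 6.74 and 3.66. Another intronic region, chr2:45049172-45049731, scored 5.01 at D0 and 14.4, 17.6 and 14.2 from W2 on, 3.51-fold higher at W6 than at D0. A static region went the other way at W6, chr2:44956150-44956728, with 18.3 at D0, 11.5 in the list labelled W1, 15.8 at W2 and 5.84 at W6, then 14.1 at W12, so that W6 was 0.319-fold of D0.

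The same pair of Zeb2 regions stood out in culture. The intronic region scored 5.90 in noDOX, 31.8 in WT-SOX9, 20.4 in SOX9+AFOS and 17 in SOX9+ARID1a, but 5.39 in ΔTA-SOX9 and 4.86 in AFOS, and ΔHMG-SOX9 had no peak. WT-SOX9 was thus 5.39-fold above noDOX, and the 3 lists labelled as having intact SOX9 were the 3 highest in culture. Its neighbour had no peak in noDOX, 19.2 in WT-SOX9 and 4.38 in SOX9+AFOS, and none in the other arms. The exonic region chr2:44985065-44985655 had 10.8 in WT-SOX9 and 6.70 in SOX9+AFOS alone. Another region had the opposite order of WT-SOX9 and noDOX. The intergenic region chr2:44969190-44969774 scored 12.9 in noDOX, 28.8 in ΔTA-SOX9 and 31.6 in AFOS, but 4.63 in WT-SOX9, and SOX9+AFOS had none. The static region chr2:44956150-44956728 scored 32.5 in noDOX, 13.5 in WT-SOX9, 24.1 in ΔHMG-SOX9, 28.5 in ΔTA-SOX9, 39.1 in AFOS, 6.46 in SOX9+AFOS and 28.4 in SOX9+ARID1a. The region closed in WT-SOX9 with the highest noDOX score was chr2:44945410-44945738, with 6.75 in noDOX, 4.45 in ΔHMG-SOX9, 5.55 in ΔTA-SOX9 and 7.52 in SOX9+ARID1a, and no peak in the other arms. Of the 9 Zeb2 regions of noDOX, WT-SOX9 lacked 4, where 27.9% of all noDOX regions were closed. ΔHMG-SOX9 lacked 3 (18.5% of all), ΔTA-SOX9 0 (19.2%), AFOS 1 (17.3%), SOX9+AFOS 7 (34.9%) and SOX9+ARID1a 2 (20.5%).

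**Figure D3:**
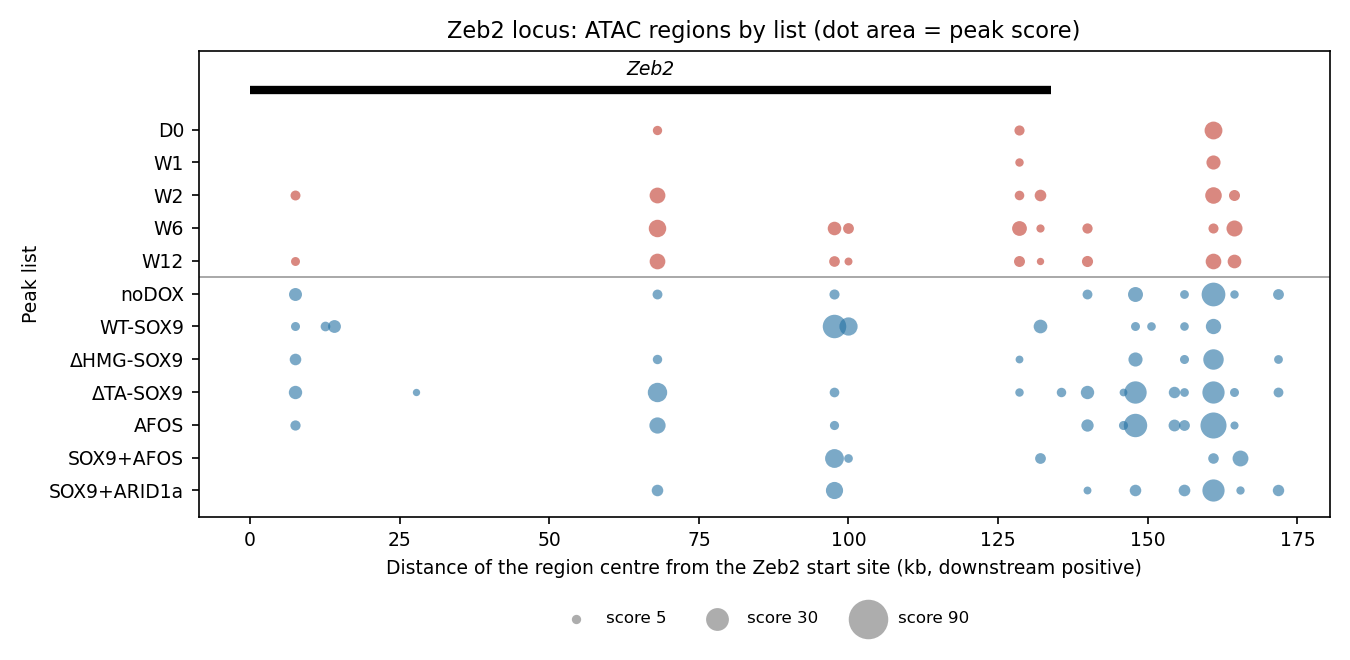
ATAC regions of the Zeb2 window by distance from its outermost start site (kb, horizontal) in each of the 12 lists (vertical), dot area in proportion to peak score and the gene as a black bar. At 97.6 kb downstream the dots are present at W6 and W12 and large in WT-SOX9, at 31.8.

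The Snail genes both gained and lost regions. At Snai2 the intergenic region printed above, chr16:14736104-14736593, was absent at D0 and in the list labelled W1 and scored 3.97, 4.96 and 16.2 at W2, W6 and W12. It had no peak in any culture list. Nearer the gene, chr16:14721907-14722565 scored 6.90 at D0 and 12.1 in the list labelled W1 and was absent afterwards and in culture. At Snai1 a region 1.63 kb upstream, chr2:167536363-167536767, behaved alike, with 6.95 and 10.2 and no peak from W2 on or in culture. Further downstream of Snai1, chr2:167574770-167575243 was first present at W6 (9.68) and W12 (8.06). In culture this region scored 18.1 in noDOX, 18 in ΔHMG-SOX9, 25.4 in ΔTA-SOX9 and 29.9 in AFOS, against 7.51 in WT-SOX9, 4.92 in SOX9+AFOS and 7.60 in SOX9+ARID1a. The 3 arms labelled as having intact SOX9 were thus all below the other 4 lists. The static region 32.0 kb downstream, chr2:167569608-167570792, had the same split in culture, with 23.2 in noDOX and 6.55 in WT-SOX9. At 5.44 kb downstream of Snai1, chr2:167543044-167544231 had no peak in noDOX or SOX9+AFOS, 4.22 in WT-SOX9, 4.51 in ΔHMG-SOX9, 14.5 in ΔTA-SOX9, 11.1 in AFOS and 4.11 in SOX9+ARID1a. Upstream of Snai1, chr2:167532311-167532501 was listed in noDOX (3.68) alone. At 30.2 kb upstream of Snai2, chr16:14674373-14677021 had no peak in noDOX, 3.91 in WT-SOX9, 9.87 in ΔHMG-SOX9 and 5.72 in ΔTA-SOX9.

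At Vim the regions first present at W6 and kept at W12 lay upstream, and 3 others were present at W6 alone, at chr2:13538857-13539132 (5.28), chr2:13576030-13576378 within the gene (7.91) and chr2:13597053-13597372, 23.3 kb downstream (3.92), as merged over the in vivo lists. At 34.5 kb upstream, inside the neighbouring gene Trdmt1, chr2:13538851-13540092 scored 8.07 at W6 and 5.45 at W12. Regions at 16.4 and 15.1 kb upstream were first present at W6 (3.58 and 3.26) and kept at W12 (4.0 and 3.79), close to the minimum score. Both were open in every culture list. The nearer one, chr2:13558504-13559055, scored 22.3 in noDOX, 27.0 in WT-SOX9, 30.0 in ΔHMG-SOX9, 33.4 in ΔTA-SOX9, 57.5 in AFOS, 14.9 in SOX9+AFOS and 44.4 in SOX9+ARID1a, so AFOS was 2.58-fold above noDOX. A region 46.3 kb upstream, chr2:13527109-13528049, also in Trdmt1, was listed in WT-SOX9 (9.89) alone.

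Twist1, at chr12:33957671-33959829, had 2 regions in all. The one 16.4 kb downstream, chr12:33973863-33974326, scored 8.06 at W6 and 3.01 at W12, and in culture 10.2 in WT-SOX9, 3.31 in AFOS and 23.8 in SOX9+ARID1a with no peak in noDOX. Twist2, at chr1:91801461-91848028, had no region in vivo and 10 in culture. Its intronic region chr1:91816222-91817151 scored 14 in noDOX, 33.9 in WT-SOX9, 19 in ΔHMG-SOX9, 15.6 in ΔTA-SOX9, 25.2 in AFOS and 7.03 in SOX9+ARID1a, with none in SOX9+AFOS. A downstream region, chr1:91882886-91883584, scored 4.81 in noDOX, 15.4 in WT-SOX9, 18 in SOX9+AFOS, 15.6 in SOX9+ARID1a and 5.10 in ΔHMG-SOX9, and ΔTA-SOX9 and AFOS lacked it. Upstream, chr1:91765446-91766697 opened in WT-SOX9 (15.3) and SOX9+AFOS (3.68).

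Zeb1, at chr18:5591860-5775467, had 3 regions in vivo, all beyond its last exon. The static region chr18:5819657-5820728 scored 12.7 at D0, 10.8 in the list labelled W1, 22.0 at W2 and 32.1 at W6, then 26.0 at W12, which is 2.53-fold higher at W6 than at D0. Fold enrichment of the same peaks did not follow it, at 10.9, 9.80, 11.6, 10.4 and 10.3. It scored 18.1 in noDOX, 36.2 in WT-SOX9, 21.6 in ΔHMG-SOX9, 38.6 in ΔTA-SOX9, 29.2 in AFOS, 23.9 in SOX9+AFOS and 15.6 in SOX9+ARID1a. Nearby, chr18:5809096-5809865 was early-gained, at 8.84, 17 and 3.79. An intronic region, chr18:5740154-5740952, was open in ΔTA-SOX9 (16.0) and AFOS (13.0) alone. Another, chr18:5764225-5764558, had no peak in noDOX and 7.84 in WT-SOX9 and 4.29 in SOX9+ARID1a. At 7.70 kb upstream, chr18:5583581-5584739 scored 4.81 in noDOX, 6.12 in ΔHMG-SOX9, 10.2 in ΔTA-SOX9, 10.3 in AFOS and 7.30 in SOX9+ARID1a, and WT-SOX9 and SOX9+AFOS lacked it.

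Cdh2 and Twist2 were culture loci. Cdh2, at chr18:16588877-16809246, had 1 region in vivo, its promoter, and 21 in culture. Windows with at most 1 in vivo region and at least 10 culture regions, bounds set from the values of these genes, numbered 19 of 21755 (0.0873%), without regard to window length, which was 320370 bp at Cdh2. Over all 10 loci 67 of 140 regions (47.9%) were found in culture only, against 29.1% of all regions, and 20 (14.3%) in vivo only, against 27.9%. The Cdh2 window held 20 of the 67, the Zeb2 window 11 and the Twist2 window 10. Culture and sorted skin also differ in preparation, and the part of this in the result was not tested.

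Within Cdh2 some intronic regions were listed in single arms. The regions chr18:16713220-16713991 and chr18:16724006-16724599 were listed in WT-SOX9 alone, at 29.3 and 21, and chr18:16704660-16705140 scored 17.5 in WT-SOX9 and 6.06 in ΔTA-SOX9. In all, 5 of the 21 Cdh2 regions and 11 of the 120 member regions (9.17%) were present in WT-SOX9 and no other culture list, against 6.04% of all regions. None of these WT-SOX9 regions was present in vivo at Cdh2. Of the 7 regions already open in noDOX, WT-SOX9 scored below noDOX at 3, above it at 2, the promoter and chr18:16822064-16822457 (7.34 in noDOX and 7.97 in WT-SOX9), and lacked the other 2. The intronic region chr18:16780219-16781166 scored 13.1 in noDOX, 37.5 in ΔHMG-SOX9, 39.6 in ΔTA-SOX9 and 65.9 in AFOS, 7.45 in WT-SOX9, and was absent from SOX9+AFOS and SOX9+ARID1a. The region chr18:16744714-16745746 repeated this order, with 9.88 in noDOX, 13.8, 25.4 and 33.0 in ΔHMG-SOX9, ΔTA-SOX9 and AFOS, 6.23 in WT-SOX9 and none in the combined arms. AFOS was 5.03-fold and 3.34-fold above noDOX at these regions. The region chr18:16758801-16759561 was closed in WT-SOX9 and both combined arms and scored 6.18 in noDOX, 9.26 in ΔHMG-SOX9, 12.3 in ΔTA-SOX9 and 7.67 in AFOS. The other region closed in WT-SOX9, chr18:16696277-16696586, scored 5.62 in noDOX, 5.10 in ΔHMG-SOX9, 10.8 in ΔTA-SOX9 and 3.61 in AFOS, so that AFOS was here below noDOX. Of the 7 noDOX regions of Cdh2, WT-SOX9 lacked 2 (27.9% of all noDOX regions were closed in that arm), SOX9+AFOS 5 (34.9% of all) and SOX9+ARID1a 6 (20.5% of all), while ΔHMG-SOX9, ΔTA-SOX9 and AFOS lacked 0 (18.5%, 19.2% and 17.3% of all). The promoter of the myeloid gene Csf1r moved in a like order, with 19.4 in noDOX, 6.02 in WT-SOX9, 51.4 in ΔHMG-SOX9, 56.7 in ΔTA-SOX9, 63.5 in AFOS, 17.3 in SOX9+ARID1a and none in SOX9+AFOS. Ptprc, Cd207 and Cd3e, which define immune cells, had no promoter peak in these lists. The promoter of Cd74, another immune marker, scored 3.74 in noDOX, 4.28 in ΔHMG-SOX9, 9.19 in ΔTA-SOX9, 5.88 in AFOS and 3.86 in SOX9+AFOS, with no peak in WT-SOX9 or SOX9+ARID1a. The part of immune cells in the result was not tested.

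**Figure D4:**
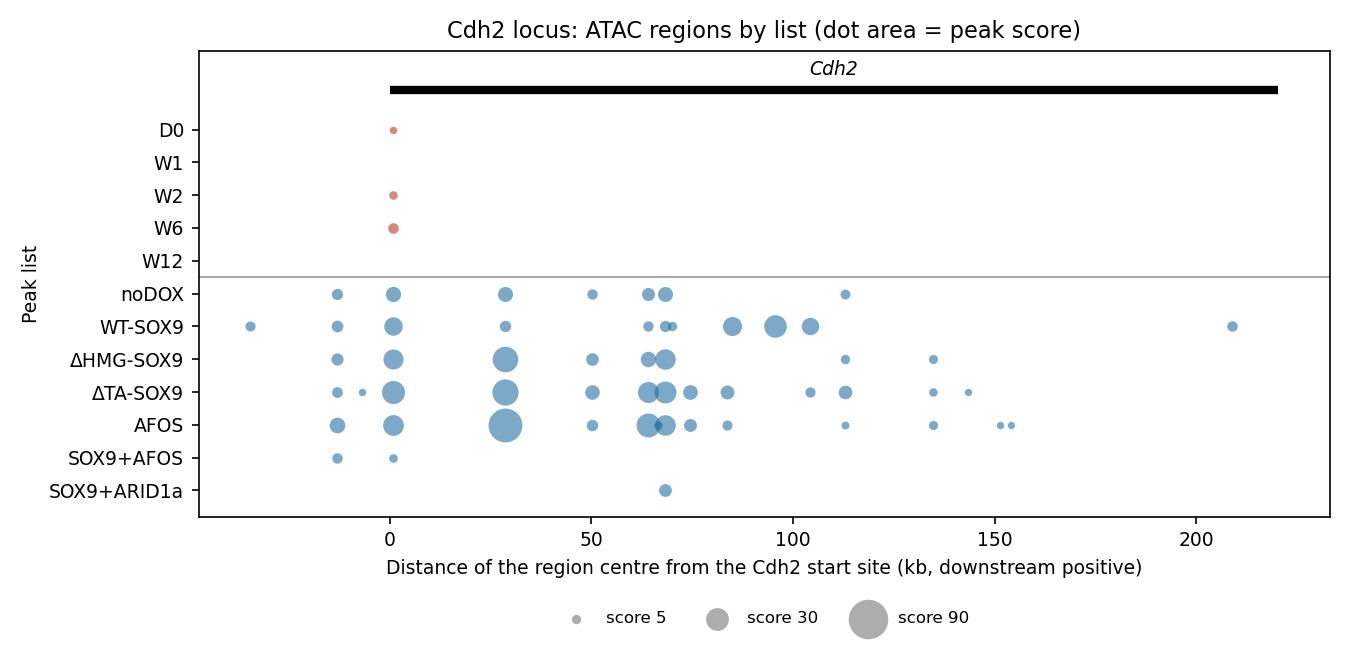
ATAC regions of the Cdh2 window by distance from its outermost start site (kb) in each list, dot area in proportion to peak score. The in vivo lists show at most a promoter dot, WT-SOX9 has large dots at 84.9 and 95.6 kb that no other list shares, and the row of SOX9+ARID1a holds a single dot.

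Across all 10 loci the culture arms were set beside noDOX, which all of them share. WT-SOX9 opened 23 of the 59 member regions absent in noDOX (39.0%, against 31.4% of all such regions) and closed 11 of 61 (18%, against 27.9%). ΔHMG-SOX9 opened 10 (16.9%, against 17.7%) and closed 10 (16.4%, against 18.5%). ΔTA-SOX9 opened 24 (40.7%, against 32.1%) and closed 11 (18%, against 19.2%). AFOS opened 20 (33.9%, against 34.6%) and closed 9 (14.8%, against 17.3%). SOX9+AFOS opened 11 (18.6%, against 31.3%) and closed 22 (36.1%, against 34.9%). SOX9+ARID1a opened 11 (18.6%, against 28.8%) and closed 13 (21.3%, against 20.5%). All backgrounds lay within the members' counting intervals except that for openings in SOX9+AFOS, whose interval was 10.7 to 30.4%.

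These counts were also split by locus, in the grouping made after the values were seen, and no difference between the loci was tested. Vim, the EMT factors and Cdh2 had 51 regions absent in noDOX and 35 present in it, and Cdh1 and Cdh3 had 8 and 26. In WT-SOX9 the first group had 22 openings and the cadherin pair 1, in ΔHMG-SOX9 8 and 2, and in ΔTA-SOX9 22 and 2. In AFOS the openings were 17 and 3, in SOX9+AFOS 9 and 2, and in SOX9+ARID1a 8 and 3. Closures in WT-SOX9 were 8 of 35 in the first group and 3 of 26 in the cadherin pair, in ΔHMG-SOX9 6 and 4, and in ΔTA-SOX9 3 and 8. In AFOS they were 4 and 5, in SOX9+AFOS 18 and 4, and in SOX9+ARID1a 11 and 2. The SOX9+AFOS list was the shortest of the 12. Its peak names and those of AFOS and SOX9+ARID1a follow another naming than the other culture lists. The widest peaks of these lists were also narrower, as given above. How their processing differed is not given in the sources used here. With the culture lists shortened to equal length, SOX9+AFOS held 34.7% of the regions of the 8 loci against 54.3% of all regions, and noDOX 44.0% against 55.2%.

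Scores were also compared where a region was present in both lists, and only changes past 2-fold were counted. Between D0 and W2, 4 of 38 member regions were higher past 2-fold (all regions 11.3%) and 1 lower past 2-fold (8.36%). Between D0 and W12, 6 of 38 were higher (9.15%) and 2 lower (9.63%). In WT-SOX9, 5 of 50 were higher than in noDOX (6.04%) and 11 lower (19.6%). In ΔHMG-SOX9, 4 of 51 were higher (5.48%) and 2 lower (7.41%). In ΔTA-SOX9, 8 of 50 were higher (9.13%) and 2 lower (11.2%). In AFOS, 7 of 52 were higher (10.8%) and 2 lower (12.4%). In SOX9+AFOS, 7 of 39 were higher (14%) and 9 lower (17.4%). In SOX9+ARID1a, 6 of 48 were higher (11.4%) and 6 lower (15.5%). The percentages in parentheses are the shares over all regions in both lists. The median log2 ratio of the members was 0.03 at W2 and 0.18 at W12, against −0.01 and −0.11 for all regions, and −0.20 in WT-SOX9 against −0.13.

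The E-cadherin locus was among the most accessible of the genome. Cdh1, at chr8:106603351-106670246, lies downstream of Cdh3, at chr8:106510891-106557297, and their windows share 9 regions. The Cdh1 window held 18.6 in vivo regions per 100 kb, at percentile 98.6 of 21755 gene windows, against a median of 6.03, and the Cdh3 window 13.0, at percentile 88.9. Cdh2 held 0.312 per 100 kb and Twist2 0. In the other windows the density was 8.26 at Vim, 7.65 at Snai1, 3.85 at Zeb2, 2.90 at Snai2, 1.96 at Twist1 and 1.06 at Zeb1.

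High scores were found in the intergenic stretch between Cdh3 and Cdh1 and in the Cdh1 introns. The region chr8:106563635-106564687, 39.2 kb upstream of Cdh1, scored 48.1 at D0, 37.8 at W2, 28.5 at W6 and 38.4 at W12. In culture it ranged from 75.6 in WT-SOX9 to 130 in noDOX. A Cdh1 intronic region, chr8:106608289-106608916, scored 49.8, 40.2, 34.8, 24.5 and 37.0 in vivo, 29.2 in noDOX, 15.6 in WT-SOX9 and 55.0 in ΔTA-SOX9. Both were thus lowest in vivo at W6, at 0.593-fold and 0.492-fold of D0. By contrast chr8:106581321-106581866, 21.8 kb upstream, scored 5.48 at D0 and 21.4 at W2, 3.91-fold higher, with 17.8 at W6 and 13.7 at W12. Fold enrichment of the same peaks rose less, at 5.59, 9.82, 9.13 and 8.42. In culture this region scored 6.26 in noDOX, 3.06 in WT-SOX9, 15.5 in ΔHMG-SOX9 and 5.09 in AFOS. It scored 28.3 in SOX9+AFOS and 14.3 in SOX9+ARID1a, with none in ΔTA-SOX9. The early-gained region was intronic in Cdh1, chr8:106640863-106641359, at 9.89, 6.05 and 4.16, and in culture it appeared in SOX9+AFOS (5.50) alone. The region lost by W2 was in Cdh3, chr8:106534959-106535624, at 6.70 at D0 and 12.8 in the list labelled W1, and it had no culture peak. The late-gained one, chr8:106518773-106519059 in the in vivo lists, scored 3.60 at W6 and 4.6 at W12.

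Several Cdh1 regions of skin differed between the culture lists, and some of these were present in noDOX and the combined arms alone. The region 16.2 kb upstream, chr8:106586891-106587445, was static in vivo, from 15.2 to 26.5. In culture it scored 5.50 in noDOX, 23.2 in SOX9+AFOS and 29.6 in SOX9+ARID1a, and the other 4 arms lacked it. SOX9+ARID1a was thus 5.38-fold above noDOX. The intronic region chr8:106646361-106647704, present in every culture list, scored 29.0 in noDOX, 53.2 in SOX9+AFOS and 50.6 in SOX9+ARID1a. It scored 15.6 in WT-SOX9, 19.1 in ΔHMG-SOX9, 7.84 in ΔTA-SOX9 and 12.2 in AFOS. Farther downstream, chr8:106718005-106718665 in Tango6 was static in vivo and scored 90.8 in noDOX but 16.5 in SOX9+AFOS, 0.182-fold. The region 31.1 kb upstream, chr8:106571853-106572606, was static in vivo and scored 12.8 in noDOX, 3.71 in SOX9+AFOS and 14.7 in SOX9+ARID1a, and the other 4 arms lacked it. The intronic region chr8:106636804-106637511 was static in vivo too, with no peak in noDOX, 6.11 in WT-SOX9, 5.59 in SOX9+AFOS and 4.18 in SOX9+ARID1a.

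**Figure D5:**
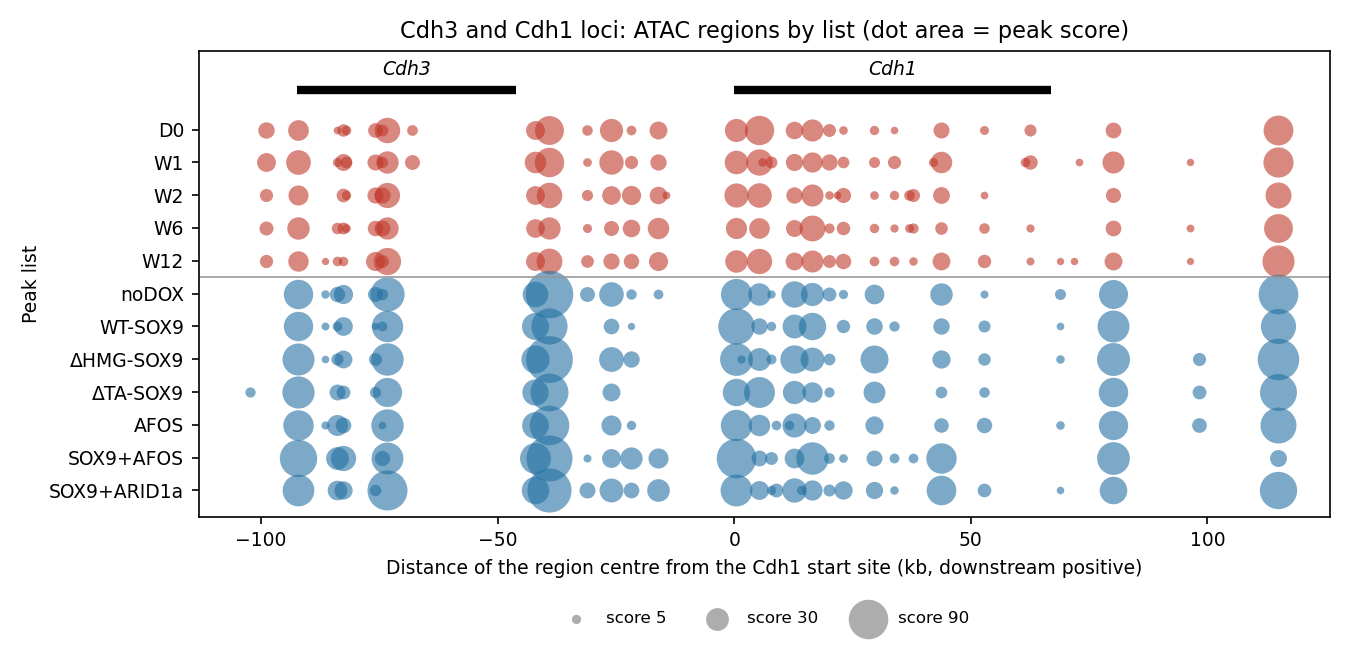
ATAC regions of the Cdh3 and Cdh1 windows by distance from the Cdh1 start site (kb) in each list, dot area in proportion to peak score, genes as black bars. The dots form columns through all 12 lists, unlike at Cdh2, with the largest 39.2 kb upstream, at up to 130.

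Related genes of the pathway, 24 in number, were described alongside. The promoters of the 6 genes known to restrain EMT in epithelia, Grhl2, Ovol1, Ovol2, Esrp1, Esrp2 and Klf4, had a peak in every list, as did those of the epithelial adhesion genes Epcam, Ctnnd1, Ctnna1, Ctnnb1 and Jup. Klf4, for instance, scored 7.52 at D0, 5.49 at W12, 22.9 in noDOX and 33.9 in WT-SOX9. Among further EMT factors, Snai3, Tcf3, Tcf4 and Foxc2 had a promoter peak in every list and Prrx1 in none. Tcf4 scored 34.7 at D0, 22.9 at W6, 43.5 in noDOX and 9.97 in SOX9+ARID1a. Of the other cadherins, Cdh11 had none and Cdh6 had one in culture alone, at 7.45 in noDOX and 8.57 in WT-SOX9. Cdh4 had 17.1 at D0 and 9.24 at W12 but 4.39 in noDOX and none in the DOX arms. Cdh13 had 3.52 at D0, 4.98 in the list labelled W1 and 4.14 at W2, then none at W6 and W12. Its only culture peak was 3.06 in WT-SOX9. Cdh5 is given above with the endothelial markers. Of the mesenchymal genes, Fn1 scored 9.85 at D0 and had none at W12, while Acta2 scored 15.9 and 17. S100a4 scored 35.1 and 29.5 at these times and had a peak in every list. In the 24 windows 343 in vivo regions were counted, of which 141 (41.1%) were static, 33 (9.62%) early-gained, 22 (6.41%) late-gained and 21 (6.12%) lost by W2. These shares are near those of all regions given above.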

How the data were processed

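ATAC-seq was done by the authors on sorted epidermal cells and cultured keratinocytes. Per the methods, reads were aligned to GRCm38/mm10 with PEPATAC, replicate alignments were merged, and peaks were called with MACS2, duplicates kept, and normalized for depth with a score threshold of 3. The submitters' processing notes name Bowtie2 2.2.9, MACS2 2.1.1, Picard 2.3.0 and SAMtools 1.9. The deposited score is the rescaled significance of a peak. Its scaling to a near-constant total a list was read from the totals. The in vivo lists also hold the authors' fold enrichment (a ratio) and the deposited −log10 q. Any Tn5 offset is not given in the sources used here. Depth in fragments is unknown, merging leaves no replicate error, and no test was run.

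Peaks were merged by 1 bp overlap across lists and assigned to GENCODE release 21 protein-coding genes with 50 kb on each side. The highest score in a region is its value, and a promoter peak lies within 500 bp of an annotated start. Changes past 2-fold were counted. Python 3.11.15, numpy 2.4.6 and matplotlib 3.10.9 were used, and the classification was tested on simulated lists. Sequences came from RefSeq GRCm38.p6 files. The named regions were all promoters and, per window, the highest-scoring early-gained, late-gained and lost region and those opened and closed in WT-SOX9, with a few others chosen after their values were seen. The members and lists were chosen with earlier results of these data known. Alternatives were a score of at least 5, lists of equal length, a common −log10 q minimum, peaks of 200 bp, 10 kb windows, leaving out the W1 list, other promoter distances and motif scans of whole regions.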

Additional observations from a re-analysis of the deposited data

Results flagged for a closer look

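The region chr8:106581321-106581866 between Cdh3 and Cdh1 was higher past 2-fold in the skin comparison and lower past 2-fold in the culture comparison, the pattern looked for. Its log2 score ratio was 1.97 for W2 over D0 and −1.03 for WT-SOX9 over noDOX. Its fold enrichment in skin was 5.59 at D0 and 9.82 at W2, a smaller rise. Other member regions also differed in direction between these comparisons, but not past 2-fold in both. Each comparison has 1 list a group, and the difference between them was not tested.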

How the results depend on the processing

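For 25 of 35 results every alternative stayed within the counting interval of the reported share, and 12 alternative values did not. With a score of at least 5, promoter peaks were found in 59.2% of gene and list pairs, 1.61% of in vivo regions were early-gained, and 0% were at least 2-fold lower at W2. With lists of equal length, 1.47% were early-gained. With a common −log10 q minimum, 0% were early-gained and 6.56% late-gained. The 8 loci without Cdh1 and Cdh3 then had 75.0% of their regions at W6, beside 53.6% at D0. Scanning whole regions instead of the central 200 bp found SOX letters in 64.3%, AP1 in 38.6%, GATA in 29.3%, RUNX in 45.7% and the E-box in 39.3% of member regions. Whole regions are longer, and all regions then held them in 57.5%, 33.1%, 27.9%, 39.3% and 41.1%. For the shares of regions opened or closed in the arms, every alternative stayed within the interval. Equal list length for the culture-only share, the higher minimum for 2-fold changes and the grouping of 8 loci were chosen after seeing the data. No paired analysis was possible because replicates were merged by the authors before peaks were called.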
